A study of Mus musculus with 25 samples.

Results

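The genes described here regulate, sense, carry, export and store iron in the liver. They are the hepcidin genes Hamp and Hamp2, the transferrin gene Trf with the receptor genes Tfrc and Tfr2, and the ferritin chain genes Fth1 and Ftl1. The others are the iron exporter gene Slc40a1, and Hfe and Bmp6, which act in the control of hepcidin. These genes are 10 of the 37085 gene symbols in the count table, taken by name from a list of iron genes, and all 10 were found. The 25 libraries come from C57BL/6 mice. In 5 libraries the mice were on normal diet, and in 4, 3, 4, 3, 3 and 3 libraries they had eaten a diet inducing non-alcoholic steatohepatitis (NASH) for 1, 2, 3, 4, 5 and 6 weeks. Hepatocytes were freed with collagenase, pelleted at low speed and sorted by flow cytometry, and the 3′ ends of their polyadenylated RNA were sequenced. Diet composition, mouse ages and the sorting gate are not given in the sources. Whether each numbered library of a group is its own mouse is not stated either, and the p-values thus measure the spread between libraries, which may be technical.

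Hepatocytes are the main source of hepcidin, a circulating peptide that binds ferroportin, the iron exporter encoded by Slc40a1, and causes its breakdown, so that less iron enters the blood from the gut and from macrophages. Hepcidin transcription is driven by bone morphogenetic proteins (BMPs) acting through SMAD factors when iron is plentiful, and by interleukin 6 acting through STAT3 in inflammation. Inside the cell, iron regulatory proteins bind hairpins in the messenger RNAs of ferritin, ferroportin and the transferrin receptor: in a 5′ untranslated region (UTR) they hold back translation, and in the 3′ UTR of Tfrc they protect the RNA from decay.

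The bases before both hepcidin genes were searched for letters known from these 2 inputs, and the copies were compared. The 250 bases before the RefSeq start sites are printed 5′ to 3′ on the gene's strand in GRCm38.p6, at chr7:30944030-30944279 for Hamp and chr7:30924182-30924431 for Hamp2, both on the minus strand. Capitals mark the core of the BMP response element, searched as GGCGCC, and a STAT site, searched as TTCNNNGAA; each reads the same on both strands and they do not overlap.
Hamp: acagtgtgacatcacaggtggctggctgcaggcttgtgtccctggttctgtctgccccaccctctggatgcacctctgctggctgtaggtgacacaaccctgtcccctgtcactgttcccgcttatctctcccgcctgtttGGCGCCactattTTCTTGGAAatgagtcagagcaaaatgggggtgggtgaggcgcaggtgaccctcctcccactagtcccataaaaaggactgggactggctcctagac
Hamp2: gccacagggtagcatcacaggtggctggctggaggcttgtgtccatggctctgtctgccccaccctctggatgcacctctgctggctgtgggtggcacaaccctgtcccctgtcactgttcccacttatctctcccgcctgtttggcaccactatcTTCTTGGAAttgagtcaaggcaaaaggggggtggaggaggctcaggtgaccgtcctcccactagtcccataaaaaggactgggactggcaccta

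The aligned windows were identical in 227 of 253 columns (89.7%). In Hamp the BMP element core lay 109 to 104 bases before the start, and the aligned letters of Hamp2 carried the substitution G4A, counted from 1 at the 5′ end of GGCGCC, so that window held no match. The STAT site lay 97 to 89 bases before the start in Hamp and 94 to 86 bases before it in Hamp2. Of 32851 RefSeq promoters, 9.59% held GGCGCC and 7.02% held TTCNNNGAA in the same window, so a match is a description of letters and not a measured site. RefSeq promoters were matched for 8 of the 10 genes.

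Matches to the iron responsive element in 4 of the genes are shown because iron regulatory proteins bind hairpins of this kind. They were found in GENCODE transcripts of GRCm38 as a C, 5 bases and the loop CAGTGN, with a last base other than G and with those 5 bases paired to the 5 after the loop (G with T allowed), on the transcript strand. Each sequence is 29 bases of the gene's strand, 5′ to 3′, with the loop in capitals. The elements of Fth1 (chr19:9982732-9982760, plus strand), Ftl1 (chr7:45459779-45459807, minus) and Slc40a1 (chr1:45925465-45925493, minus) lie in the 5′ UTR, and the 4 of Tfrc lie in its 3′ UTR on the plus strand at chr16:32631219-32631247, chr16:32631598-32631626, chr16:32631663-32631691 and chr16:32631710-32631738.
Fth1: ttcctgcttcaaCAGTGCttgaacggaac
Ftl1: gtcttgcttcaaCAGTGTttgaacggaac
Slc40a1: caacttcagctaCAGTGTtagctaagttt
Tfrc, element 1: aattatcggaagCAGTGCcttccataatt
Tfrc, element 2: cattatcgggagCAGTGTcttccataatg
Tfrc, element 3: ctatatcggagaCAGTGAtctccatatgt
Tfrc, element 4: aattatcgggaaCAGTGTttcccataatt

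Of 21877 protein-coding genes, 23 (0.105%) held such an element in a 5′ UTR and 100 (0.457%) in a 3′ UTR. An element with another loop or an unpaired base would be missed by this search, and binding was not measured. The libraries measure RNA levels only, so translation of the messages with 5′ elements was not measured.

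Libraries held 5281143 to 10015751 counts, and 9 of the 10 genes passed the filter on low counts, all but Bmp6. Levels are CPM, counts scaled to a common library total and composition, and they are compared between groups and not between genes. Genes of other liver cell types were present although the cells were sorted hepatocytes. At week 5, 13 of 13 Kupffer cell and 14 of 14 sinusoidal endothelial markers were called higher than on normal diet. So were 11 of 12 stellate cell and 8 of 10 monocyte and macrophage markers, where 19.1% of all genes were called higher. At week 4 the counts called higher were 2, 6, 10 and 3 in that order, where 8.28% of all genes were called. The summed Kupffer level ranged from 116 to 630 CPM on normal diet, from 323 to 1272 CPM over weeks 1 to 4, from 1733 to 1882 CPM at week 5 and from 1454 to 1743 CPM at week 6. For endothelial markers the sums were 226 to 871 CPM on normal diet, 611 to 1360 CPM at week 4, 1988 to 2293 CPM at week 5 and 1604 to 1981 CPM at week 6. At week 5 and at week 6, 6 of 10 hepatocyte markers were called lower, beside 16.3% and 10.5% of all genes. Their sum was 97106 to 107647 CPM on normal diet and 73207 to 80596 CPM at week 5. Of the 7 erythroid markers tested, 1 (Epor) was called at week 5, and of the lymphocyte markers 1 of 2 tested (Ptprc) was. In bulk RNA, fewer cells of a type and less RNA per cell cannot be told apart. A score per library, the mean log2 CPM of the Kupffer, endothelial and stellate markers, was 3.45 ± 0.78 (SD, n = 5) on normal diet, lowest in normal-diet libraries 1 and 5, and 5.99 ± 0.13 (n = 3) at week 5.

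Slc40a1, the exporter, had the smallest adjusted p of the 9 genes tested in the tests among groups and in the slope. It rose at weeks 2, 4, 5 and 6 against normal diet, by up to 2.80-fold at week 5, and over the weeks of diet. Trf and Tfrc fell at weeks 5 and 6, by 1.35- to 2.12-fold, and Tfr2 fell at week 5 by 1.29-fold. With libraries scaled by total count only, the calls of Tfrc, of Tfr2 and of Trf at week 6 were lost. Hfe rose by 1.30-fold at week 5 and 1.24-fold at week 6. Hamp did not pass the test against normal diet at any week. Its slope across the weeks of diet was upward, from its lowest mean at week 1 to its highest at week 6. The rise was not steady, with means of 678 CPM at week 3, 513 CPM at week 4 and 636 CPM on normal diet. The ferritin genes passed no test of a week, of the slope or among the groups. With the marker score as a term in the fit, none of the 9 genes was called at weeks 2, 4, 5 or 6 or for the slope. That fit called 18 of all genes at week 5, against 4197 without the term. It therefore cannot tell the score from the later weeks, and its values for single genes below carry the same limit.

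Counts of calls are set against the background of all 11869 genes tested. Calls required an adjusted p (Benjamini-Hochberg over all genes) under 0.05, and every week was compared with the same 5 normal-diet libraries. At week 1, 0 of 9 genes were called (4 at an unadjusted p under 0.05, and 1 by DESeq2), where 1.20% of all genes were, and 0 had groups that did not overlap, against 4.42%. At week 2 there was 1 (0.885% of all genes), at week 3 there were 0 (0.851%; 3 at an unadjusted p under 0.05, and 0 by DESeq2) and at week 4 there was 1 (8.28%). At week 5, 5 of 9 were called, 2 higher and 3 lower, where 35.4% of all genes were called, 19.1% higher and 16.3% lower, and at week 6, 4 of 9 were, 2 in each direction, against 26.8%, 16.3% higher and 10.5% lower. The slope over weeks 1 to 6 was called in 5 of 9, 3 upward and 2 downward (33.9% of all genes, 18.9% upward and 14.9% downward), any difference among those weeks in 4 of 9 (23.2%), and any difference among the 7 groups in 5 of 9 (29.9%). The median log2 fold change of the 9 genes was -0.12 at week 5 and -0.16 at week 6, beside -0.05 for all genes at both weeks. With libraries scaled by total count only, the median of all genes moved up by 0.34 at week 5 and 0.30 at week 6 on the log2 scale. The share of all calls that were higher then went from 54% to 91.2% at week 5, from 60.8% to 93.5% at week 6, from 65.5% to 87.3% at week 4 and from 55.9% to 87.9% for the slope, so the changes below are relative to the composition of the libraries.

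**Figure D1:**
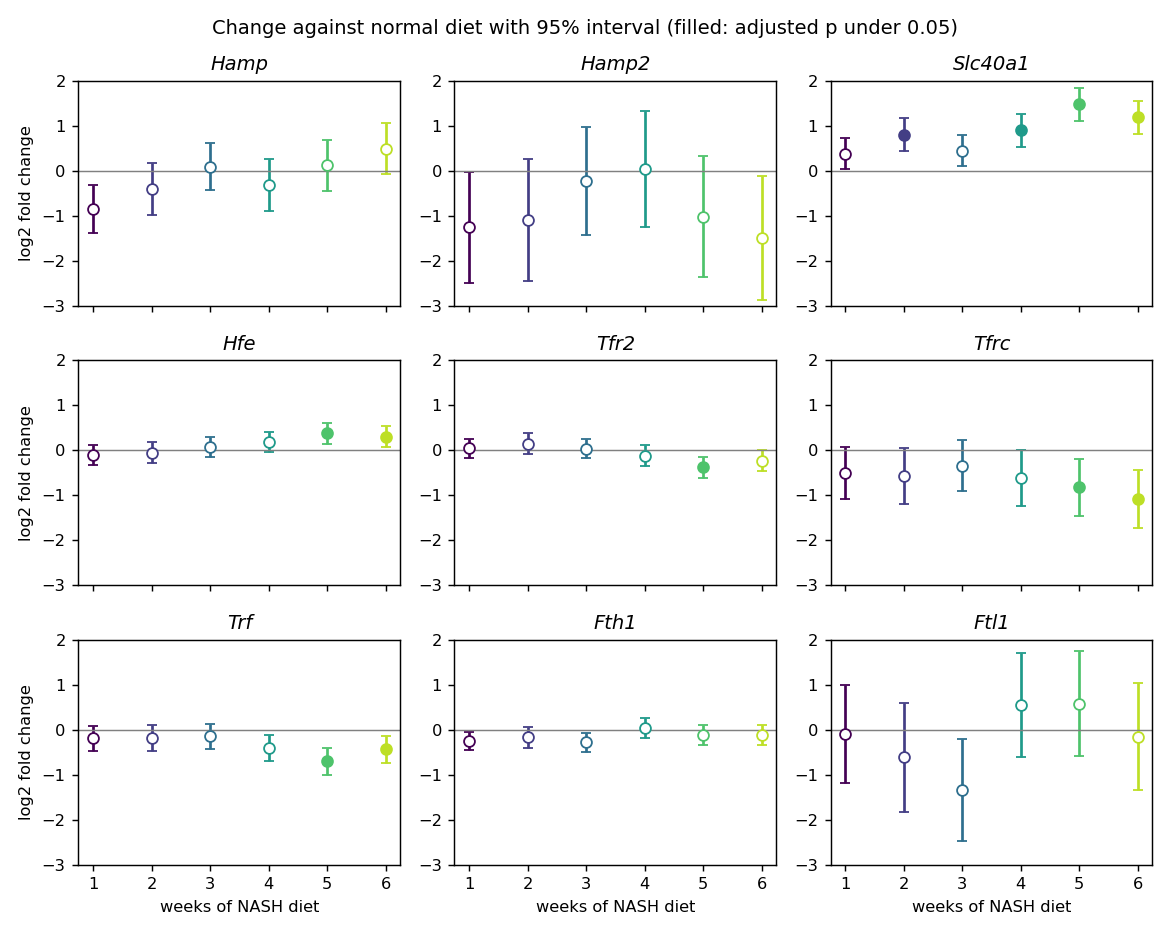
Log2 fold change against normal diet (vertical axis) by weeks of NASH diet (horizontal axis) for the 9 genes tested, with 95% intervals from edgeR; filled points have an adjusted p under 0.05. Slc40a1 is filled at weeks 2, 4, 5 and 6, and the hepcidin and ferritin genes are filled at no week.

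The hepcidin gene Hamp, which encodes the iron-regulating peptide, stood on normal diet at 679, 710, 326, 770.2 and 694 CPM. At week 1 its libraries read 316, 382, 284 and 433 CPM, and at week 2 they read 269, 594 and 588 CPM. All 4 week 1 libraries lay below 4 of the 5 normal-diet libraries, and normal-diet library 3 lay among them, so the groups overlapped. The fitted change at week 1 was -0.85 ± 0.26 on the log2 scale (SE; adjusted p = 0.135). Without normal-diet library 3 it was -1.01 with an adjusted p of 0.0222, and with DESeq2 it was -0.85 with an adjusted p of 0.0364.

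Later libraries of Hamp read 588, 702, 769.6 and 652 CPM at week 3, 329, 660.3 and 549 CPM at week 4, and 529, 769.9 and 789 CPM at week 5. At week 6 they read 911, 670.3 and 1117 CPM, so that 2 of the 3 exceeded every library of the other groups. Means ran in the order week 1 (354 ± 66.8 CPM, SD, n = 4), week 2 (484 ± 186, n = 3), week 4 (513 ± 169, n = 3), normal diet (636 ± 177, n = 5), week 3 (678 ± 76.8, n = 4), week 5 (696 ± 145, n = 3) and week 6 (899 ± 223, n = 3). Every pair of neighbours in that order overlapped in range. The change at week 6 was 0.50 ± 0.27 (adjusted p = 0.186), with a 95% interval from -0.06 to 1.06. With libraries scaled by total count only, it was 0.80 with an adjusted p of 0.0243.

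Across the diet weeks the slope of Hamp was 0.23 ± 0.05 log2 units per week (adjusted p = 0.00128), and it differed among the weeks (adjusted p = 0.0158) and among the 7 groups (adjusted p = 0.0181). Without library 3 of week 6 the adjusted p among the groups was 0.0513. Adding the marker score as a term gave a slope of 0.32 with an adjusted p of 0.198. The 4 libraries of week 1 and library 1 of week 2, at 269 to 433 CPM, had scores of 3.54 to 5.05, and normal-diet libraries 1 and 5, at 679 and 694 CPM, had scores of 2.81 and 2.45. Normal-diet libraries 2, 3 and 4, at 710, 326 and 770.2 CPM, had scores of 3.81, 3.85 and 4.31. Libraries 2 and 3 of week 2, at 594 and 588 CPM, had scores of 3.67 and 4.47. The week 3 libraries, at 588 to 769.6 CPM, had scores of 3.83 to 4.61. Those of week 4, at 329, 660.3 and 549 CPM, had scores of 5.46, 5.04 and 4.41. The libraries of weeks 5 and 6, at 529 to 1117 CPM, had scores of 5.49 to 6.08.

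Hamp2, the second mouse hepcidin gene, had a larger coefficient of variation than Hamp in 5 of the 7 groups and a smaller one at weeks 2 and 5. Normal-diet libraries read 230, 36.3, 24.2, 194 and 237 CPM, and so fell into 3 high and 2 low libraries, with a mean of 144 ± 105 CPM (SD, n = 5). The low ones were libraries 2 and 3, while for Hamp only library 3 was low. At week 3 the libraries read 32.5, 131, 176 and 153 CPM and at week 4 they read 73.8, 190 and 181 CPM. Those of weeks 1, 2, 5 and 6 all lay between 34.8 and 83.8 CPM, inside the normal-diet range. Hamp2 passed no test: the change was -1.25 ± 0.59 at week 1 (adjusted p = 0.468) and -1.49 ± 0.66 at week 6 (adjusted p = 0.106), and the slope was -0.02 ± 0.11 per week (adjusted p = 0.911). Without normal-diet library 3 the week 6 change was -1.76 with an adjusted p of 0.0327.

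Of the counts of both hepcidin genes, Hamp2 made up 16.5 ± 9.97% (SD, n = 5) with normal diet and 14.3 ± 2.62% after 1 week. Its share was 21.8 ± 3.28% after 4 weeks and 5.93 ± 4.22% after 6 weeks. The reference transcripts were 88.8% identical, with a longest shared run of 87 bases, so the counting may have moved reads between them. Counted as 1 gene, the pair had a slope of 0.20 (adjusted p = 0.00470) and an adjusted p among the 7 groups of 0.0528. Over the 25 libraries the log2 levels of Hamp and Hamp2 had a Pearson r of 0.28.

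**Figure D2:**
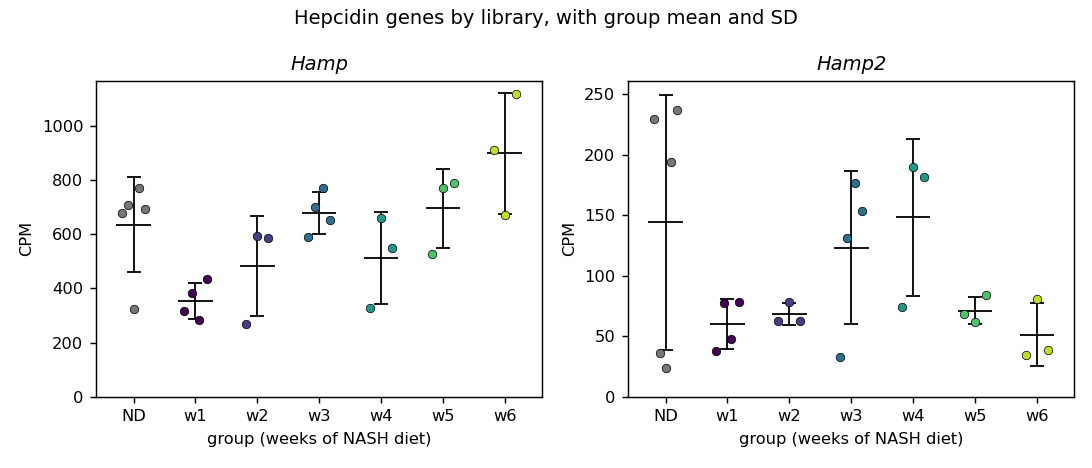
Levels of Hamp and Hamp2 in CPM (vertical axis) in each library (points) by group, from normal diet (ND) to week 6 (w6), with group mean and SD. The group mean of Hamp is lowest at week 1 (libraries at 284 to 433 CPM), and its lowest single library is at week 2 (269 CPM). Hamp reaches 1117 CPM at week 6, while Hamp2 spans 24.2 to 237 CPM within normal diet.

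Bmp6, a ligand that raises hepcidin transcription and is made in the liver mainly by sinusoidal endothelial cells, was barely counted. It had 0 to 6 counts per library, 27 in all, and was not tested. Summed over the libraries of a group it had 1 count on normal diet, 3 at week 1, 3 at week 2, 1 at week 3, 1 at week 4, 11 at week 5 and 7 at week 6. A library listed at 0 allows for up to 3 counts, and this floor covers counting error only, so no fold is given.

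Hfe, a membrane protein that interacts with both transferrin receptors and is needed for a normal hepcidin response, read 25.2, 28.5, 34.6, 31.8 and 33.1 CPM on normal diet. It read 38.3, 41.3 and 40.2 CPM at week 5 and 39.7, 38.1 and 35.9 CPM at week 6, and at both weeks every library lay above every normal-diet library. At weeks 1 to 3 the libraries lay between 25.5 and 35.1 CPM and at week 4 between 32.8 and 38.5 CPM. Hfe rose by 0.38 ± 0.11 at week 5 (log2, SE; adjusted p = 0.00899) and by 0.31 ± 0.11 at week 6 (adjusted p = 0.0415), with a slope of 0.10 ± 0.02 per week (adjusted p = 0.000512). The week 6 call was lost without normal-diet library 1 or 2 or any single library of week 6, with adjusted p from 0.0535 to 0.155. Adding the marker score gave a week 5 change of 0.10 (adjusted p = 0.931) and that of week 6 was 0.06 (adjusted p = 0.939).

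Slc40a1, the ferroportin gene, is active in hepatocytes and strongly so in Kupffer cells. On normal diet it read 54.8, 68.5, 71.7, 79.9 and 69.8 CPM, with a mean of 68.9 ± 9.06 CPM (SD, n = 5). At week 1 its libraries read 89.9, 81.8, 113 and 75.7 CPM, at week 2 they read 149.7, 111 and 102 CPM, and at week 3 they read 72.1, 130.4, 88.0 and 86.0 CPM. Every library of week 2 lay above normal diet, while weeks 1 and 3 overlapped with it.

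At week 4 the exporter read 145, 135 and 109 CPM, at week 5 it read 212, 194 and 175 CPM, and at week 6 it read 175, 115 and 183 CPM. All libraries of these weeks lay above all of normal diet. Means ran in the order normal diet, week 1 (90.0 ± 16.1 CPM, n = 4), week 3 (94.1 ± 25.2, n = 4), week 2 (121 ± 25.3, n = 3), week 4 (129.5 ± 18.8, n = 3), week 6 (158 ± 37.2, n = 3) and week 5 (193 ± 18.5, n = 3), and each pair of neighbours overlapped in range.

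The rise of Slc40a1 was 0.81 ± 0.18 at week 2 (log2, SE; adjusted p = 0.023), 0.91 ± 0.18 at week 4 (adjusted p = 0.00383), 1.49 ± 0.18 at week 5 (adjusted p = 2.98e-06) and 1.19 ± 0.18 at week 6 (adjusted p = 5.09e-05). Its slope over the diet weeks was 0.19 ± 0.03 per week (adjusted p = 0.00011). The fitted values of weeks 1 and 3 were 0.38 ± 0.17 (adjusted p = 0.402) and 0.45 ± 0.17 (adjusted p = 0.253). The week 2 call was lost without normal-diet library 1 or 2, or without library 1 or 2 of week 2, with adjusted p of 0.0716, 0.0507, 0.297 and 0.0508.

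Levels of Slc40a1 and the marker score ran in the same order within week 3 and within week 4, but not within every week. At week 3, libraries at 72.1, 86.0, 88.0 and 130.4 CPM had scores of 3.83, 4.19, 4.26 and 4.61. At week 4, libraries at 109, 135 and 145 CPM had scores of 4.41, 5.04 and 5.46. The week 2 library with the highest Slc40a1 level (149.7 CPM) had the highest score of its week (5.05), and the week 6 library with the lowest level (115 CPM) had the lowest score of its week (5.49). At week 5 the scores ran only from 5.84 to 6.08. There the library with the highest level (212 CPM) had the lowest score, and the library with the highest score read 194 CPM. In a fit that held the marker score as a term, the change was 0.50 at week 2 (adjusted p = 0.260), 0.42 at week 4 (0.578), 0.69 at week 5 (0.503) and 0.48 at week 6 (0.519), and the slope was 0.07 (0.623). In that fit 18 of all genes were called at week 5, against 4197 without the term, so the score and the later weeks cannot be told apart.

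The genes most like Slc40a1 over the 25 libraries, by Pearson r of log2 levels among 6202 genes, were Klf6 (0.94), Atp1b3 (0.94), Zswim6 (0.93) and Actn1 (0.92). For Hamp the closest were Scmh1 (0.60), Atf7ip (0.59), Aldh1a7 (0.59) and Tspan9 (0.59), a looser match. For Tfrc they were Slc25a3 (0.84), Ostc (0.81), Sec23b (0.81) and Bola3 (0.80). The libraries share diet groups, depth and composition, so these values describe likeness only.

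**Figure D3:**
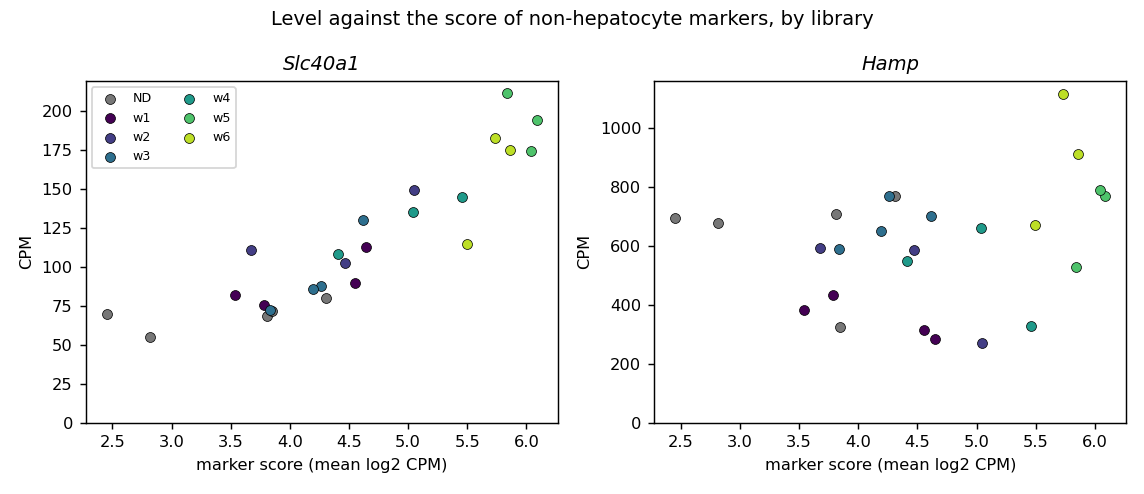
Level in CPM (vertical axis) of Slc40a1 and Hamp in each library against the mean log2 CPM of Kupffer, endothelial and stellate markers (horizontal axis), coloured by group. Slc40a1 lies at 54.8 to 79.9 CPM in normal-diet libraries with scores of 2.45 to 4.31, and reaches 212 CPM in a week 5 library with a score of 5.84. Hamp levels of the normal-diet libraries with the lowest scores (2.45 and 2.81) are 694 and 679 CPM. At scores of 3.81, 3.85 and 4.31 normal-diet libraries read 710, 326 and 770.2 CPM.

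Trf encodes transferrin, the plasma protein that carries iron and is secreted by hepatocytes. Its libraries read 8409, 6604, 7900.0, 7631 and 9023 CPM on normal diet. At week 4 they read 4940.4, 6282 and 6735 CPM, at week 5 they read 4111, 5206 and 5352 CPM, and at week 6 they read 5294, 6032 and 6231 CPM. The libraries of weeks 5 and 6 lay below every normal-diet library, and week 4 overlapped with the lowest of them.

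The libraries of weeks 1 to 3 lay between 5391 and 7933 CPM. Trf fell by 0.69 ± 0.15 on the log2 scale at week 5 (SE; adjusted p = 0.000635) and by 0.44 ± 0.14 at week 6 (adjusted p = 0.0263), and its slope was -0.09 ± 0.03 per week (adjusted p = 0.0114). Leaving out normal-diet library 1 or 5 or library 1 of week 6 took the week 6 adjusted p to 0.0519, 0.0818 and 0.129, and leaving out library 1 of week 6 took that of the slope to 0.0549. The adjusted p among the 7 groups was 0.0109, and 0.0530 without library 1 of week 5. With the marker score as a term the week 5 change was -0.21 (adjusted p = 0.866) and that of week 6 was -0.01 (0.989), and with libraries scaled by total count only the week 6 change was -0.13 (0.485) and the slope -0.04 (0.222). Of the most abundant hepatocyte markers, Apoa1 changed by -0.73 ± 0.14 at week 5, while Alb was not called at that week. In the test of any difference among the 7 groups Alb was called (adjusted p = 0.0339). Their slopes were -0.17 ± 0.02 for Apoa1 and 0.006 ± 0.022 (adjusted p = 0.869) for Alb. The 10 hepatocyte markers, Alb among them, changed by -0.92 to -0.305 at week 5.

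Tfr2, the hepatocyte transferrin receptor that senses iron-loaded transferrin, varied little on normal diet, with 144, 145, 141, 134 and 132 CPM. At week 5 it read 106.4, 110.2 and 106.0 CPM, and at week 6 it read 114, 138 and 104 CPM. All week 5 libraries lay below all normal-diet libraries, and library 2 of week 6 lay among them. Tfr2 fell by 0.37 ± 0.11 at week 5 (log2, SE; adjusted p = 0.0131), while its change at week 6 was -0.23 ± 0.11 (adjusted p = 0.138), or -0.36 with an adjusted p of 0.0330 without library 2 of week 6. The libraries of weeks 1 to 4 lay between 122 and 178 CPM and gave changes from -0.12 to 0.15. Its slope was -0.09 ± 0.02 per week (adjusted p = 0.00163), and it differed among the weeks (adjusted p = 0.0185; 0.0504 to 0.0587 without any single library of week 5). With the marker score as a term the week 5 change was -0.28 (adjusted p = 0.789). With libraries scaled by total count only it was -0.04 (adjusted p = 0.833), where the median of all genes was 0.28, and the slope was -0.04 (adjusted p = 0.135).

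Tfrc encodes transferrin receptor 1, which takes up iron-loaded transferrin and in whose message the search found the 4 elements printed above. It read 15.6, 27.4, 35.1, 15.0 and 17.1 CPM on normal diet, 7.79, 11.9 and 18.1 CPM at week 5, and 9.28, 12.5 and 9.57 CPM at week 6. These levels rest on 65 to 225 counts per library. Week 6 lay below all of normal diet, while library 3 of week 5 lay above 3 normal-diet libraries, and libraries 2 and 3 on normal diet stood above the other 3.

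Tfrc fell by 0.82 ± 0.31 on the log2 scale at week 5 (SE; adjusted p = 0.0407) and by 1.08 ± 0.31 at week 6 (adjusted p = 0.0127). The libraries of weeks 1 to 4 lay between 9.40 and 21.2 CPM, and the fitted changes were -0.50, -0.56, -0.34 and -0.60. The slope was -0.11 ± 0.06 per week (adjusted p = 0.123). The week 5 call was lost without normal-diet library 2 or 3 or library 1 or 2 of week 5 (adjusted p from 0.0839 to 0.203), and with the size factors of DESeq2 (0.0576). The week 6 call was lost without library 1 or 3 of week 6 (0.0611 and 0.0515). With libraries scaled by total count only the changes were -0.47 (adjusted p = 0.241) and -0.78 (0.0654). With the marker score as a term the changes were -1.30 at week 5 (adjusted p = 0.551) and -1.50 at week 6 (0.330), larger in size than without it.

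**Figure D4:**
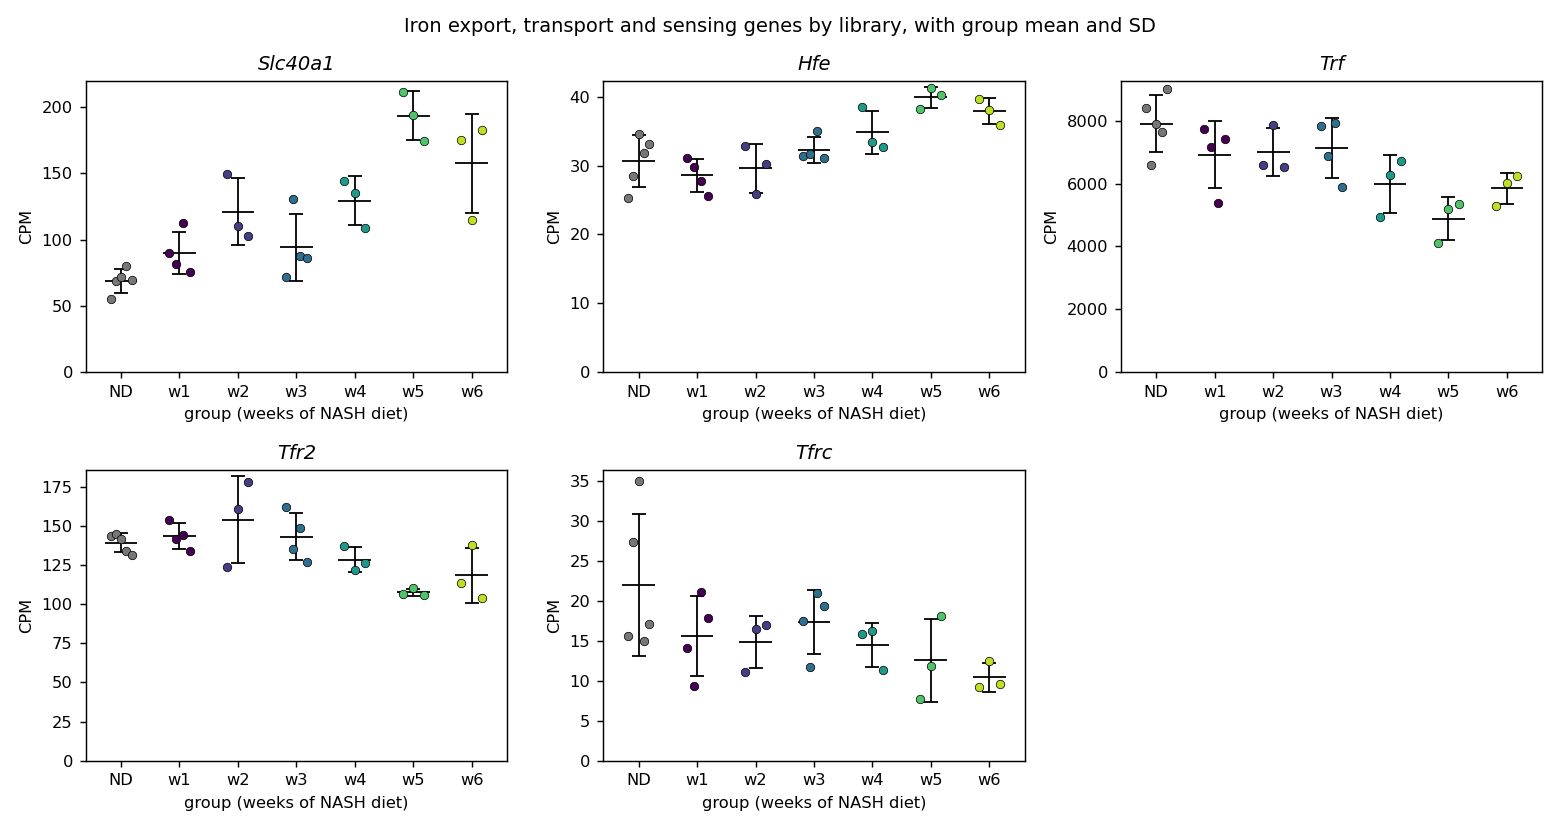
Levels in CPM (vertical axis) of the iron transport and sensing genes in each library (points) by group, with group mean and SD. Slc40a1 and Hfe at weeks 5 and 6 lie above normal diet without overlap, and Trf at the same weeks lies below it (4111 to 6231 CPM against 6604 to 9023 CPM).

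Fth1 encodes the heavy chain of ferritin, the iron storage shell, which oxidises iron for storage. It stayed within 1185 to 1758 CPM in all libraries. On normal diet it read 1429.7, 1758, 1725, 1504 and 1729.7 CPM, and at week 5 it read 1515, 1487 and 1507 CPM, inside the normal-diet range. The changes against normal diet were -0.25 ± 0.10 at week 1 (adjusted p = 0.344), -0.28 ± 0.10 at week 3 (adjusted p = 0.235) and -0.12 ± 0.11 at weeks 5 and 6, where the 95% interval ran from -0.34 to 0.11.

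Ftl1, the light chain that helps iron settle in the ferritin core, spread widely within the diet groups. Normal-diet libraries read 74.2, 122, 98.8, 105.5 and 76.3 CPM, but week 1 libraries read 43.2, 35.6, 177 and 102 CPM, and week 6 libraries read 157, 24.0 and 75.2 CPM. At week 3 the libraries read 24.4, 23.4, 29.2 and 72.3 CPM, all below normal diet, and at week 5 they read 157, 149 and 122.1 CPM, all above it. The libraries of week 2 read 35.0, 37.9 and 113 CPM and those of week 4 read 172, 155 and 93.0 CPM.

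Although week 3 and week 5 did not overlap with normal diet, Ftl1 passed neither test, with changes of -1.34 ± 0.54 (adjusted p = 0.302) and 0.58 ± 0.55 (adjusted p = 0.448). Groups did not overlap for 1 of the 9 genes at week 3, where 5.06% of all genes tested did not, and for 5 of 9 at week 5, where 38.3% did not. The corresponding counts were 1 at week 2 (6.89%), 1 at week 4 (13.5%) and 4 at week 6 (26.6%). With only normal-diet and week 5 libraries in the fit, the week 5 change of Ftl1 was 0.64 with an adjusted p of 0.00851.

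The counts of Ftl1 were 5.85 ± 1.12% of those of Fth1 on normal diet (SD, n = 5), 2.76 ± 1.66% at week 3 (n = 4) and 9.51 ± 1.23% at week 5 (n = 3). The processed pseudogene Ftl1-ps1 shares a run of 524 identical bases with the Ftl1 transcript, and it was listed with 32 to 166 counts per library, so the level of Ftl1 is uncertain. Added to its listed pseudogenes, Ftl1 changed by -1.13 at week 3 (adjusted p = 0.289) and 0.45 at week 5 (adjusted p = 0.483). Chosen after the values were seen, the genes most like Ftl1 were Ppp1ca (r = 0.97), Ndufb6 (0.96), Rps23 (0.94) and Atp5md (0.94), and those most opposed to it were Rpl14-ps1 (-0.91), Usp50 (-0.91), Rps15a-ps6 (-0.90) and Psmd4 (-0.90).

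**Figure D5:**
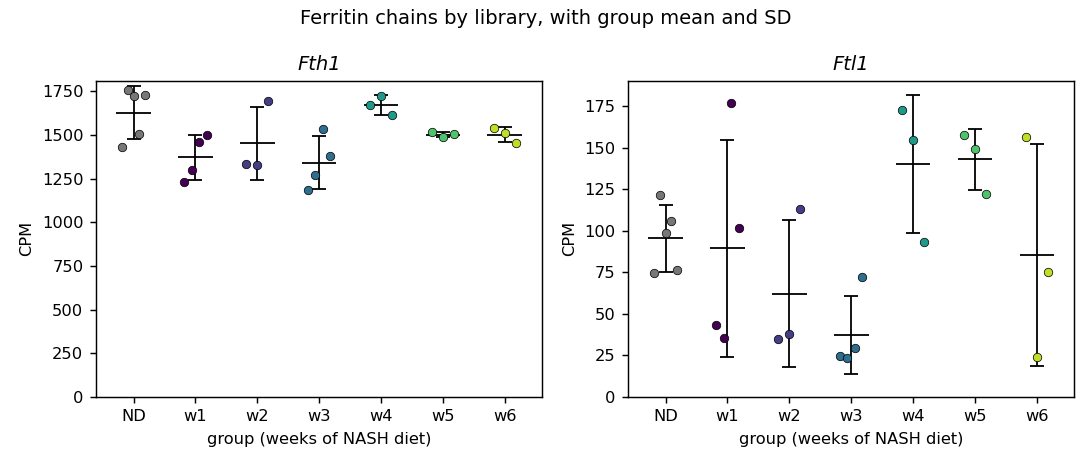
Levels in CPM (vertical axis) of the ferritin genes Fth1 and Ftl1 in each library (points) by group, with group mean and SD. Fth1 lies between 1185 and 1758 CPM throughout, while Ftl1 spans 24.0 to 157 CPM within week 6.

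The log2 levels of the genes related to each other as follows over the 25 libraries. Slc40a1 had a Pearson r of -0.80 with Trf, -0.69 with Tfr2, -0.59 with Tfrc and 0.69 with Hfe. Fth1 and Ftl1 had an r of 0.65, and Hamp had an r of 0.16 with Slc40a1 and -0.18 with Tfrc. These are descriptions over libraries that share groups and composition.

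The BMP and SMAD pathway that drives hepcidin was represented by 17 other genes that were tested. At week 5, 6 of them rose and 0 fell (Bmp2, Bmpr2, Smad6, Smad7, Id1 and Id3), where 35.4% of all genes were called and 19.1% were higher. At week 6, 5 rose (26.8% of all genes called, 16.3% higher) and at week 4, 1 did (8.28% called), with medians of 0.07, 0.11 and 0.10. Bmp2, a hepcidin-inducing ligand made by sinusoidal endothelial cells, went from 21.7 ± 11.0 CPM (SD, n = 5) on normal diet to 118 ± 20.4 CPM (n = 3) at week 5, a change of 2.43 ± 0.35 (log2, SE). Smad6, an inhibitor of BMP signalling and one of its target genes, rose by 1.76 ± 0.28, and the target gene Id1 rose by 1.68 ± 0.34. The receptor gene Bmpr2 rose by 0.80 ± 0.12. The summed endothelial level at week 5 was 1988 to 2293 CPM against 226 to 871 CPM on normal diet, and its part in these values was not tested.

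Over the diet weeks the slope was called in 8 of the 17, 6 upward and 2 downward. Of all genes, 33.9% were called, 18.9% upward and 14.9% downward. Hjv, the hemojuvelin co-receptor, changed by -0.35 ± 0.16 at week 5 (adjusted p = 0.0806) and -0.02 ± 0.15 at week 6. Tmprss6, the protease that cleaves hemojuvelin and lowers hepcidin, changed by -0.31 ± 0.14 at week 5 (adjusted p = 0.0950) and -0.17 ± 0.14 at week 6. Both were chosen after their values were seen.

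Of 11 genes of the interleukin 6 and stress inputs to hepcidin, 4 rose at week 5 (Il6st, Jak1, Jak2 and Socs3) and 2 fell (Cebpa and Creb3l3). There 35.4% of all genes were called, 19.1% higher and 16.3% lower. Jak1, a kinase of the interleukin 6 receptor, rose by 0.67 ± 0.11 and Il6st, the gp130 receptor chain, by 0.66 ± 0.14. Cebpa, a factor that activates hepcidin transcription, fell by 0.54 ± 0.12 and Creb3l3, which links endoplasmic reticulum stress to hepcidin, by 0.50 ± 0.14. At week 6, 2 rose and 1 fell, where 26.8% of all genes were called, 16.3% higher and 10.5% lower. Any difference among weeks 1 to 6 was called in 7 of the 11 (23.2% of all genes), Saa1 and Saa2 among them. Their changes at week 3 were 2.04 ± 0.70 (adjusted p = 0.214) and 2.34 ± 0.71 (adjusted p = 0.161), with overlap between the groups. Both genes were chosen after their values were seen.

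Of 8 genes of iron regulatory proteins and ferritin turnover, 3 fell and 0 rose at week 5, and 2 fell at week 6. Of all genes, 16.3% were called lower at week 5 and 10.5% at week 6 (35.4% and 26.8% in either direction). Ireb2, iron regulatory protein 2, fell by 0.62 ± 0.17 at week 5 and 0.68 ± 0.17 at week 6. Aco1, which serves as aconitase or as iron regulatory protein 1, fell by 0.49 ± 0.14 and 0.54 ± 0.14. Skp1, part of the ubiquitin ligase that degrades Ireb2, fell by 0.31 ± 0.11 at week 5, and Ncoa4, the ferritin autophagy receptor, changed by -0.38 ± 0.32 (adjusted p = 0.377).

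Among 16 other genes of iron and heme uptake and export, 2 rose and 1 fell at week 5. There 35.4% of all genes were called, 19.1% higher and 16.3% lower. Heph, a ferroxidase that works with ferroportin, rose by 2.31 ± 0.47 from 0.489 ± 0.425 CPM, and the heme exporter Flvcr1 rose by 1.50 ± 0.41. Lcn2, which binds iron-carrying siderophores, rose at week 3 by 3.41 ± 0.70 (adjusted p = 0.0203) with overlap between the groups. Abcg2, a transporter that also carries heme and porphyrins, rose at week 1 by 0.64 ± 0.12 (adjusted p = 0.00349), without overlap, and its change at week 5 was -0.09 ± 0.13 (adjusted p = 0.663).

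The cell uses much of its iron in heme and in iron-sulfur clusters. Of 13 heme genes, 3 fell (Alad, Urod and Fech) and 1 rose at week 5, and 4 fell and 1 rose at week 6. Of all genes, 35.4% were called at week 5 (19.1% higher, 16.3% lower) and 26.8% at week 6 (16.3% higher, 10.5% lower). Urod fell by 0.60 ± 0.14 at week 5 and Fech, which inserts iron into heme, by 0.43 ± 0.11, while Hmox1, the heme-degrading oxygenase that is abundant in macrophages, rose by 1.49 ± 0.39. Of 21 mitochondrial iron and iron-sulfur genes, 6 fell and 0 rose at week 5, and 4 fell and 0 rose at week 6. Of all genes, 16.3% and 10.5% were called lower at these weeks. Hspa9, a chaperone of cluster transfer, fell by 0.51 ± 0.09 at week 5, Cisd1 by 0.52 ± 0.13, Bola3 by 0.44 ± 0.13 and Nfu1 by 0.39 ± 0.13. The medians of these lists at week 5 were -0.11 and -0.31, beside -0.05 for all genes and -0.69 for the 10 hepatocyte markers.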

How the data were processed

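The data are raw counts per gene symbol in 25 libraries, deposited by the authors as 1 table. Per the labels, the library kit was QuantSeq 3′ FWD. STAR 2.7.1a, cutadapt, FastQC and the build GRCm39 are named per the submitters' processing notes. For the read counter and annotation, the name was not given in the sources used here.

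Genes were kept by edgeR's filterByExpr by group (11869 genes). Groups were compared with edgeR 4.0.16 in R 4.3.3 by quasi-likelihood F-tests in 1 model of all 7 groups with TMM factors (18 residual degrees of freedom), and calls used a Benjamini-Hochberg adjusted p under 0.05 over all genes. Standard errors are the change divided by the square root of F. The code was run on simulated counts with equal numbers of genes raised and lowered, so a shift of library composition was not tested. DESeq2 1.42.0 and limma 3.58.1 (voom) were alternatives. Log2 levels used a prior count of 2.

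The 10 genes, the pathway and marker lists and the tests were chosen with earlier results of these data known. Named genes are the 10, up to 4 of each pathway list by the smallest p among all groups, the 4 most like Hamp, Slc40a1 and Tfrc (mean level of 10 CPM or more), and the markers; exceptions are said to be chosen later. Sequences came from RefSeq and GENCODE on GRCm38, another build than that of the counts, and no count was placed by them. Same-group libraries differed by more than sampling noise (chi-squared over degrees of freedom of 5.42 to 32.2). Intervals and floors cover 95% and counting error only where counts are given. A library's replicate number was not treated as a pair.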

Additional observations from a re-analysis of the deposited data

Results flagged for a closer look

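In 3 of 27 checks of a gene within a group of 4 or 5 libraries, 1 library stood far from the others relative to the range of the group. Chance flags about 1 in 20 such groups. Hamp in normal-diet library 3 stood at 326 CPM, with the other 4 between 679 and 770.2 CPM. Ftl1 in library 4 of week 3 stood at 72.3 CPM, with the other 3 between 23.4 and 29.2 CPM. Hfe in library 3 of week 3 stood at 35.1 CPM, with the others between 31.1 and 31.6 CPM.

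In 4 of the genes the change against the shared normal-diet libraries differed between lengths of diet, by edgeR's quasi-likelihood test of any difference among weeks 1 to 6. The adjusted p was 0.0158 for Hamp, 0.0185 for Tfr2, 0.000617 for Slc40a1 and 0.0138 for Hfe. Group means of Hamp ran from 354 CPM at week 1 to 899 CPM at week 6, those of Slc40a1 from 90.0 CPM at week 1 to 193 CPM at week 5, and those of Hfe from 28.6 CPM at week 1 to 39.9 CPM at week 5. Those of Tfr2 ran from 154 CPM at week 2 down to 107.5 CPM at week 5.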

How the results depend on the processing

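Alternatives changed 1 choice at a time, and none reversed a called change. The number of the 9 genes called (0, 1, 0, 1, 5 and 4 at weeks 1 to 6, 5 for the slope, 4 among weeks and 5 among groups) stayed within 1.5 times of these values but for the following. With the marker score as a term, 0 were called at weeks 2, 4, 5 and 6, for the slope, among weeks and among groups. Scaling by total count only left 3 at week 5, no filter left 3 among groups, and DESeq2 gave 1 at week 1. Leaving out normal-diet libraries 1 and 5 left 0 at week 2 and 2 at week 6, and only both compared groups in the fit left 2 at week 6. With 1 library left out at a time the count was 0 to 1 at week 1, 0 to 1 at week 2, 1 to 5 at week 6 and 3 to 5 among groups. The causes were not tested.

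The replicate block gave 0 at week 2 and 2 at week 6. Over 66 pairs of libraries with the same number, the correlation of deviations ran from -0.44 to 0.41 with a mean of -0.003. For pairs with other numbers the mean was 0.001. The labels do not say what the number marks, and these means cannot exclude that some libraries with the same number are related.

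For all genes, the marker score left 58 calls at week 4, 18 at week 5, 29 at week 6, 6 for the slope, 0 among weeks and 77 among groups, against 983, 4197, 3175, 4020, 2749 and 3553. DESeq2 called 267, 198 and 217 genes at weeks 1 to 3 against 142, 105 and 101. Without library 1 of week 4, 155 were called at that week. Bmp6, at 0 to 6 counts per library, was too low to test, and counts of near-identical genes may be split between them.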
